A study of Homo sapiens with 2 samples.

Results

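The cyclin genes CCND1, CCND2, CCND3, CCNE1, CCNE2, CCNA2, CCNB1, CCNB2 and CCNB3, together with the gene of the CDK-binding protein CABLES1, were followed on promoter microarrays hybridized with GATA1 chromatin immunoprecipitation (ChIP) DNA. The probes of a gene were those that the array annotation assigns to its symbol, and this gave 10 of the 17280 annotated genes and 295 of the 474411 genomic probes. Meg-01, a line of human leukemia cells of the megakaryocytic lineage, was used without treatment, and no other cells were studied. From 1 chromatin preparation, DNA was pulled down with the GATA1 antibody C-20, raised to the C-terminus (the IP, labeled with Cy5), or with normal goat IgG (the background, labeled with Cy3), and both were amplified and hybridized together to a set of 2 arrays. The arrays hold different probes. The array chIP1 carries CCND3, CCNE2, CCNA2 and CCNB1, and chIP2 carries the other 6 genes.

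Cyclins bind cyclin-dependent kinases (CDKs) and switch them on. D-type cyclins act with CDK4 and CDK6 in G1, E-type cyclins with CDK2 at the entry into S phase, cyclin A2 in S and G2, and B-type cyclins with CDK1 in mitosis, while CABLES1 links CDKs to kinases that phosphorylate them. The transcription factor GATA1 reads GATA sequences in DNA through its zinc fingers and is needed for red cells and megakaryocytes to mature. Megakaryocytes are known for leaving the ordinary cell cycle and replicating their DNA without dividing, which makes the cyclin genes a natural place to look at GATA1 occupancy. No RNA or protein was measured on these arrays.

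Promoter sequences were at hand for 7 of the 10 genes, in 11 RefSeq entries on GRCh38.p14, each with 250 bases before and 50 bases after an annotated start. They were searched on both strands for the GATA letters AGATAA or TGATAA, either of them also with a final G in place of the last A (AGATAG or TGATAG), and for CCAAT, the box that is read by the factor NF-Y and is known from promoters of mitotic genes. A GATA match was found in 2 of the 11 entries, beside 25% of all 35116 promoter entries, and a CCAAT match in 6 of the 11, beside 34.6% of all. No matches overlapped each other. The 250 bases before the start are shown for CCNA2, CCNB1 and CCNB2, where the IP signal was raised at or just before the start, and for CCNB3, the only printed gene with a GATA match. The CCAAT matches not printed were 2 in CCND3 and 1 in CABLES1, and CABLES1 had no raised IP signal at its array start. Capitals mark CCAAT or its reverse complement and, in CCNB3, AGATAG, and each line runs in the direction of transcription.
CCNA2 (chr4:121823884-121824133, minus strand): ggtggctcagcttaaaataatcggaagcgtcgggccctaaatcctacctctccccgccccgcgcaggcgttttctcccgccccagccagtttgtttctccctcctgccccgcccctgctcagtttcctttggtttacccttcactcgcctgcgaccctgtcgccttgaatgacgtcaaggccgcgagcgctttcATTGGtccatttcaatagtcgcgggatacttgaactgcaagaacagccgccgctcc
CCNB1 (chr5:69166900-69167149, plus strand): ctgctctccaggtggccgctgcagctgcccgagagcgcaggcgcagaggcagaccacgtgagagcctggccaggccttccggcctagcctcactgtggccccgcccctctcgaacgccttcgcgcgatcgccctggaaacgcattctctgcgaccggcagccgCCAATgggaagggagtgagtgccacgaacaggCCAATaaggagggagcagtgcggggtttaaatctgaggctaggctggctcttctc
CCNB2 (chr15:59104896-59105145, plus strand): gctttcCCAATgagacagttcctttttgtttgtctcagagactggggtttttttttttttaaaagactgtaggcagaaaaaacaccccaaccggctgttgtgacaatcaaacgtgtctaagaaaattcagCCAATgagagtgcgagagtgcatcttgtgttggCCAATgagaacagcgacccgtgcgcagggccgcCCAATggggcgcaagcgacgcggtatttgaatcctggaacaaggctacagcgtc
CCNB3 (chrX:50204515-50204764, plus strand): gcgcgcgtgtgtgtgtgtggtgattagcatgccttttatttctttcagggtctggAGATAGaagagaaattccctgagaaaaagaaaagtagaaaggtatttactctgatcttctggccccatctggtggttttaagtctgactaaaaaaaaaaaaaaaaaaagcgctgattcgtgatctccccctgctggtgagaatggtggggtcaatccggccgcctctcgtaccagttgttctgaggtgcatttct
Counted from 0 at the first transcribed base, the CCAAT boxes of CCNB2 begin at -244, -120, -87 and -54, those of CCNB1 at -87 and -55, and the reverse box of CCNA2 at -56. The AGATAG of CCNB3 begins at -195. The array annotation measures distance from its own starts on coordinates that differ from GRCh38, so the printed bases and the probes below can be shifted against each other, and a match of letters is a description and not a binding site.

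Each probe was given the log2 ratio of its processed IP to its processed IgG signal, shifted so that the median probe of an array is at 0, and a value of 1 stands for 2-fold more IP than IgG signal. A window was the mean of 3 adjacent probes of which the outer ones lay no further than 1000 bp from the middle one. A window of at least 1 was counted on the IP side and one of at most -1 on the IgG side. Negative distances lie upstream of the transcription start that the array annotation uses. For CCNE1 the annotation uses more than 1 start, so distances on its upstream side are mixed. Each probe was measured in 1 hybridization without a dye swap, so no difference could be tested against replicates, and an SD given here is the spread over neighboring probes. The number of arrays limits the precision. For a control probe that each array repeats 480 times, the log2 ratio varied with an SD of 0.048 (chIP1) and 0.044 (chIP2), against 0.97 over all kept genomic probes of either array. The repeated spots share 1 hybridization, so their SD does not cover the pull-down, the amplification or the labeling.

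All 295 probes passed the filters on flags and dim spots, none was saturated, and they gave 264 windows. Of the 10 genes, 7 had an IP-side window, beside 57.1% of the 17054 genes with windows. Likewise 7 had an IgG-side window, beside 52.9%. The 10 genes held 26 IP-side windows, or 9.85% of their windows, against 7.62% of all 415409 windows on the arrays. They held 23 IgG-side windows, or 8.71%, against 9.65% of all windows. The median highest window of the 10 genes was 1.12, and that of all genes was 1.09. The median lowest window was -1.35 against -1.05 over all genes. By these counts the cyclin genes as a list lay near the background of the arrays. More windows gave more chances of a call: among all genes with 30 to 50 windows, the range of CCND1, CCND2, CCNE1 and CCNE2, 72.7% held an IP-side window and 70.1% an IgG-side window, against 52.7% and 48.6% of genes with 10 to 29 windows, the range of the other 6.

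**Figure D1:**
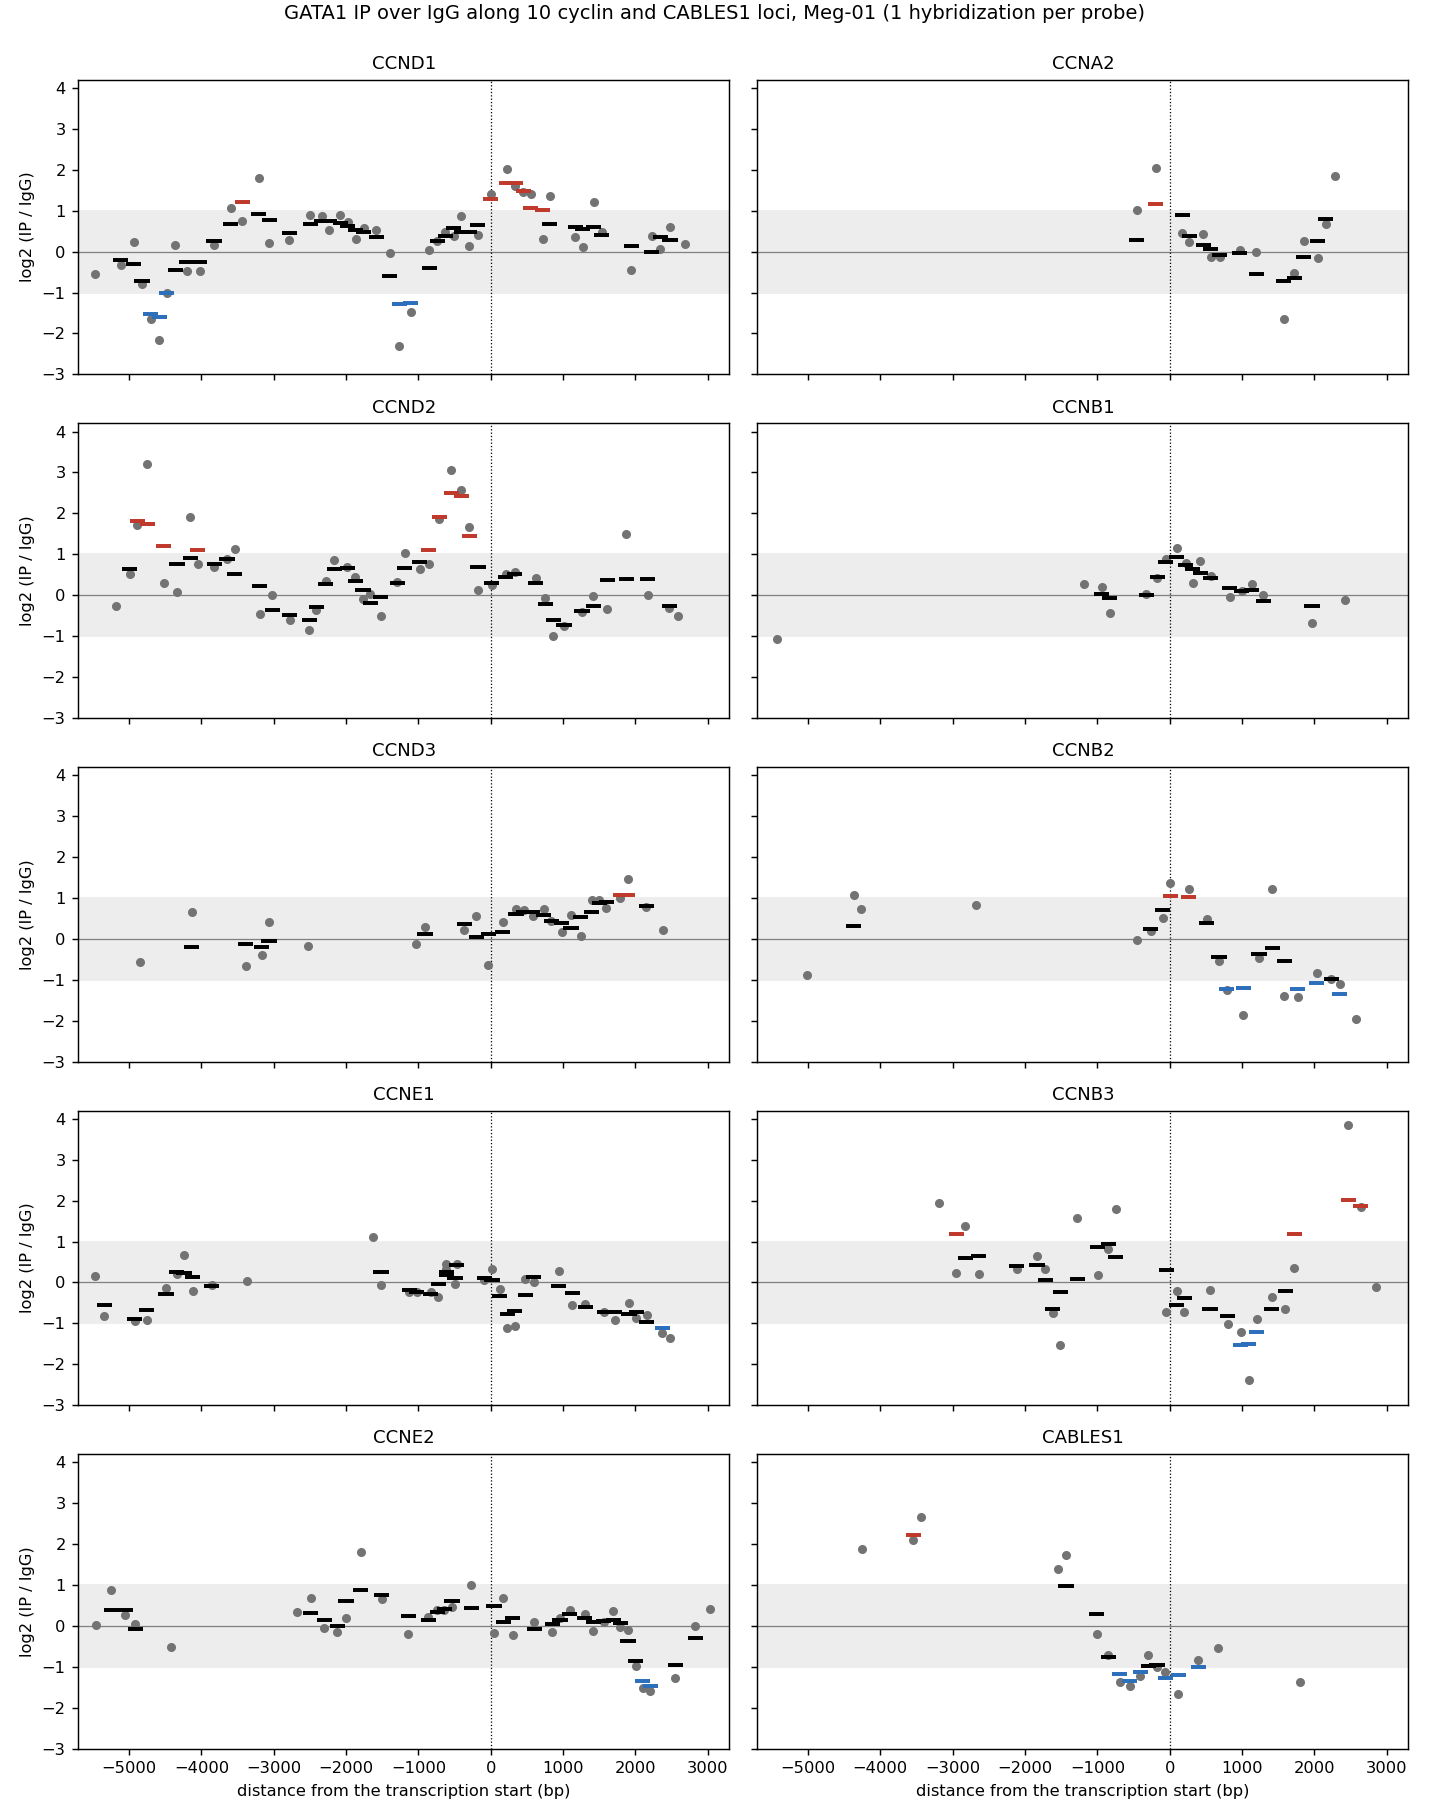
Log2 of IP over IgG signal (vertical axis) against the distance from the transcription start in bp (horizontal axis) for the probes of the 10 genes. Grey points are probes measured in 1 hybridization, short bars are the means of 3-probe windows at their center probe (red at 1 or above, blue at -1 or below, black otherwise), the grey band spans -1 to 1 and the dotted line is the start. CCND1 rose just inside the gene, CCND2 upstream of it, and CABLES1 fell below 0 at every probe within 1000 bp of its start. The CCNA2 window at -849 bp is not drawn because its center probe is annotated to BBS7. CCNE1 distances are counted from more than 1 annotated start.

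CCND2, the D-type cyclin gene with the highest window of the 10, had 2 separate IP-side stretches upstream of its start and no IgG-side window. The 5 windows of the nearer stretch were centered from -857 to -298 bp (chromosome 12, 4252197 to 4253044 in the coordinates of the files, whose build is not given in the sources used here). Along it the probes at -857, -711, -548, -407 and -298 bp read 0.77, 1.87, 3.06, 2.56 and 1.67, a rise and fall with a single summit. The highest window, at -548 bp, was 2.50 ± 0.60 (SD over 3 probes), or 5.65-fold, with mean processed intensities of 1529.9 in the IP and 308 in the IgG channel, and it stood at percentile 97.2 of the genes on chIP2. After normexp background correction the highest CCND2 window was 1.61. At the start itself the signal was back near the array median, with 0.13 at -176 bp and 0.24 at 12 bp. The second stretch held 4 windows centered from -4884 to -4049 bp. Windows at -4337 and -4151 bp within it were 0.76 and 0.91, under the threshold. Its probes at -4884, -4750 and -4151 bp read 1.71, 3.20 and 1.90, with probes of 0.30 and 0.09 between the last 2. The probe of 1.90 was dim, at percentile 8.03 of intensity. This stretch was thus less even than the nearer one. The lowest CCND2 window was -0.72 at 1013 bp.

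CCND1, the gene of cyclin D1, had its IP-side signal on the other side of the start. A run of 6 windows was centered from -1 to 717 bp (chromosome 11, 69164851 to 69165899), and the probes at -1, 225, 337, 451 and 554 bp read 1.41, 2.01, 1.60, 1.45 and 1.40. The highest window, at 337 bp, was 1.69 ± 0.29 (SD over 3 probes), or 3.22-fold, with mean intensities of 2102 in the IP and 611 in the IgG channel, at percentile 84.5 of the genes on chIP2. Within this run the probes at -1, 554 and 818 bp were dim, at percentiles 8.80, 2.74 and 3.82 of intensity. Without the dimmest 10% of probes the highest CCND1 window was still 1.69. All 14 CCND1 probes within 1000 bp of the start lay above 0. Further upstream the locus changed sign more than once. A single IP-side window of 1.21 lay at -3432 bp, and IgG-side windows lay at -4701 to -4476 bp, where the lowest was -1.60, and at -1267 to -1106 bp. The second dip rested on adjacent probes of -2.31 and -1.47 between probes of -0.04 and 0.03.

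CCND3, the D-type cyclin gene that shares its upstream probes with BYSL, a gene for a ribosome assembly factor, showed a slow rise within the gene. From 164 bp to 2384 bp, all 16 probes inside the gene lay above 0, and the highest probe was 1.46 at 1894 bp. A pair of windows crossed the threshold, with 1.07 at 1788 bp and 1.07 ± 0.35 (SD over 3 probes) at 1894 bp (chromosome 6, 42015359 to 42015954), and the next one, at 2149 bp, was 0.81. The highest window stood at percentile 46.2 of the genes on chIP1. The probes of this pair of windows were bright, with intensities between percentiles 85.3 and 99.0 of chIP1. After loess on intensity the highest window was 0.89 and after centring by probe length 0.97, both under the threshold. The 5 probes shared with BYSL, from -1026 to -36 bp, read -0.12, 0.29, 0.21, 0.55 and -0.63, with no trend toward either side.

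The 3 D-type genes therefore held their highest windows at different places, upstream in CCND2, across and just after the start in CCND1 and further inside in CCND3. The CCND3 window, at percentile 46.2, was below that of the median gene on chIP1. Over the probes within 1000 bp of the start, the mean was 0.88 ± 1.12 (SD, 13 probes) in CCND2, 0.86 ± 0.65 (SD, 14 probes) in CCND1 and 0.38 ± 0.39 (SD, 11 probes) in CCND3. These means stood at percentiles 95.15, 94.8 and 62.2 of the genes on their arrays. The median over all genes was 0.22. After normexp background correction the means were 0.64 in CCND2, 0.49 in CCND1 and 0.46 in CCND3, so that CCND1 and CCND3 were nearly equal.

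**Figure D2:**
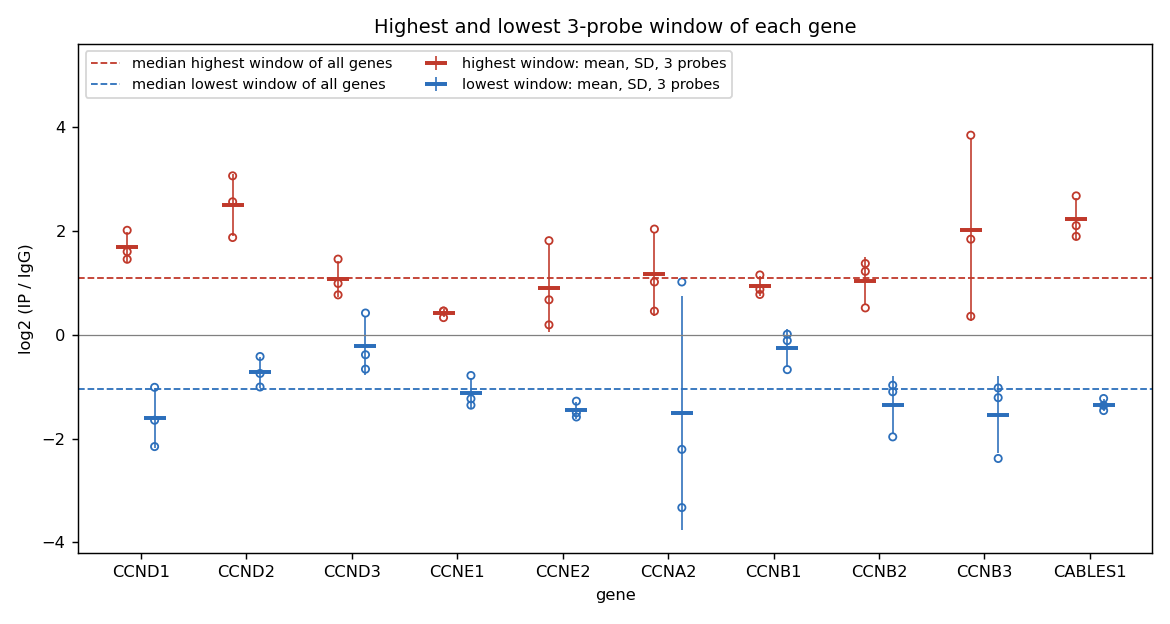
Highest (red) and lowest (blue) 3-probe window of each gene, as log2 of IP over IgG signal (vertical axis). Open circles are the 3 probes of the window, bars their mean and lines their SD, and dashed lines are the medians of the highest (1.09) and lowest (-1.05) windows of all genes. The 3 probes of the high window all lay above 1 in CCND1, CCND2 and CABLES1, while those of CCNB3 ran from 0.35 to 3.84 and those of the CCNA2 low window from -3.33 to 1.02.

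The E-type cyclin genes had no IP-side window. In CCNE1, whose product drives the entry into S phase with CDK2, the highest window of the locus was 0.41 at -471 bp, at percentile 9.14 of the genes on chIP2, with 33 windows measured. Distances in CCNE1 are counted from more than 1 annotated start. In coordinate order the 3 probes of this window stand at -614, -471 and -616 bp. The probes from -88 bp on are all counted from the later start. Near that start the probes at -88, 17 and 122 bp read 0.05, 0.33 and -0.17, and those at 229 and 331 bp read -1.12 and -1.05. The probes at 475, 594 and 937 bp were back at 0.10, 0.01 and 0.27, and from 1127 bp on all 9 probes lay below 0. The values fell to -1.23 at 2369 bp and -1.36 at 2475 bp, and the last window of -1.13 ± 0.30 (SD over 3 probes) was on the IgG side. This call was lost with normexp background correction (-0.88), with centring by probe length (-0.89) and with windows of 5 probes (-0.95). In CCNE2, the paralog, the highest window was 0.89 at -1794 bp and rested mainly on 1 probe of 1.81. A short IgG-side stretch lay at 2101 to 2205 bp, where the probes read -1.50 and -1.58, and the next probe, at 2554 bp, read -1.28. With normexp background correction the lowest CCNE2 window was -0.90, short of the threshold. Between 599 and 1897 bp the 10 CCNE2 probes ranged only from -0.14 to 0.40.

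CCNA2, the gene of cyclin A2, was tiled by 2 upstream and 13 inside probes. Both upstream probes were high, with 1.02 at -457 bp and 2.03 at -194 bp, and both are also annotated to BBS7 and EXOSC9, so the signal cannot be assigned to 1 gene. Inside the gene the signal fell to 0.45 at 173 bp and -0.14 at 567 bp. The IP-side window at -194 bp was 1.17 ± 0.80 (SD over 3 probes; chromosome 4, 123102290 to 123102972), at percentile 53.2 of the genes on chIP1. The IgG-side window of the locus, -1.51 at -849 bp, was centered on a probe of BBS7 and held probes of -3.33, -2.21 and 1.02. Its dimmest probe stood at percentile 0.21 of intensity. The lowest window centered on a CCNA2 probe was -0.73. Both CCNA2 calls were lost with normexp background correction, at 0.89 and -0.49, and with windows of 5 probes, at 0.83 and -0.83.

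The B-type cyclin genes CCNB1, whose product is the main partner of CDK1 in mitosis, and CCNB2, its paralog, had values above 0 at the probes over their starts. In CCNB1 the probes at -173, -57, 99, 221 and 318 bp read 0.42, 0.87, 1.15, 0.78 and 0.29, and the highest window was 0.93 ± 0.20 (SD over 3 probes) at 99 bp, under the threshold. CCNB1 was the 1 gene of the 10 with a window on neither side. It also had bright probes, with a median intensity at percentile 88.1, and the highest window was 0.70 after loess on intensity, 0.67 after centring by probe length and 1.03 after normexp background correction. In CCNB2 the probes at -96, 10, 264 and 509 bp read 0.52, 1.37, 1.22 and 0.48. The windows at 10 and 264 bp were 1.04 and 1.02 (chromosome 15, 57184489 to 57185145), close to the threshold, and after loess on intensity the highest was 0.98. Without loess the highest CCNB2 window stood at percentile 48.2 of the genes on chIP2. Between -5010 and -96 bp the 7 upstream probes of CCNB2 are shared with RNF111, a ubiquitin ligase gene.

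Inside CCNB2 the signal turned to the IgG side. The probes at 788 and 1015 bp read -1.25 and -1.86, the probe at 1416 bp read 1.21, and the 6 probes from 1583 to 2574 bp ranged from -1.97 to -0.84. There were 5 IgG-side windows between 788 and 2350 bp. The lowest was -1.35 ± 0.54 (SD over 3 probes). All 5 were made of 60-base probes, a matter taken up with the probe lengths below.

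CCNB3, a meiotic B-type cyclin gene on the X chromosome, gave the most uneven locus. Its highest window, 2.01 at 2471 bp, was the mean of probes of 0.35, 3.84 and 1.84. These probes were among the dimmest, at percentiles 2.54 to 15.6 of intensity, with mean intensities of 267 in the IP and 107 in the IgG channel. The IgG signal of the probe of 3.84 was 19.3 and not well above background, so that its ratio has no exact value. With probes well above background in both channels, and likewise without the dimmest 10% of probes, the highest window was 1.19, and after normexp background correction it was 0.89. The IP-side windows beside the highest one, 1.18 at 1725 bp and 1.86 at 2640 bp, held the same probe of 3.84. A separate IP-side window, of 1.19, lay at -2953 bp. IgG-side windows lay at 984 to 1203 bp, with a lowest window of -1.54 ± 0.74 (SD over 3 probes), which was -0.91 after normexp background correction. On the array no probe lay between -748 bp, where the value was 1.8025 with an IgG signal not well above background, and -45 bp, where it was -0.72. Since the starts differ between the annotations, the AGATAG printed above could not be placed among these probes.

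CABLES1 was on the IP side far upstream and on the IgG side across its start. Far upstream, the probes at -4253, -3544 and -3437 bp read 1.89, 2.10 and 2.67, and their window of 2.22 ± 0.40 (SD over 3 probes), or 4.67-fold, stood at percentile 95.0 of the genes on chIP2 (chromosome 18, 18985508 to 18986379). The mean intensities of this window were 1129 in the IP and 251 in the IgG channel, and after normexp background correction the highest CABLES1 window was 1.37. The probes at -1547 and -1433 bp still read 1.40 and 1.75. From -1008 bp on, all 12 probes lay below 0, and 6 windows centered from -693 to 393 bp were on the IgG side, with a lowest window of -1.35 ± 0.12 (SD over 3 probes) at -551 bp. After normexp background correction the lowest CABLES1 window was -0.95, and the gene then had no IgG-side window. The mean of the 10 probes within 1000 bp of the start was -1.06 ± 0.37 (SD), at percentile 1.72 of the genes on chIP2, the lowest place of the 10 genes. No window bridges the gap between -3437 and -1547 bp, where no probe is assigned to the gene. The high probes form a group of 3, so no window of 5 probes could be made over them, and with 5 probes the highest window of the locus was 0.18.

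The CABLES1 start on the array is not the most upstream one. The annotation also lists an Ensembl transcript that begins 19462 bp further upstream, and RefSeq has 3 starts for the gene, the third of them 20340 bp from the second. The high probes and the IgG-side run therefore both lie within the transcribed region of the longer forms. The first RefSeq entry holds the only AGATAA among the CABLES1 promoters, but no spacing of RefSeq starts equals that of the array annotation, so the place of that entry against the probes is not settled.

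The loci were set against the profile of all genes in steps of distance, of which only some are given here. Between -4000 and -2000 bp the central 50% of all genes lay between -0.60 and 0.24. CCND1 with 0.75, CCNB2 with 0.83, CCNB3 with 0.82 and CABLES1 with 2.39 lay above this range. The other genes with probes there lay inside it. Between -500 and 0 bp the median over all genes was 0.30, and the central 50% of genes lay between -0.10 and 0.71. CCND2 with 1.45, CCNA2 with 1.53 and CCNE2 with 1.00 lay above this range and CCNB3 with -0.72 and CABLES1 with -1.02 below it. Between 0 and 500 bp the range of all genes was -0.05 to 0.62. CCND1 with 1.69, CCNB2 with 1.30 and CCNB1 with 0.77 lay above it, and CCNE1 with -0.38, CCNB3 with -0.46 and CABLES1 with -1.25 lay below. Between 1000 and 2000 bp CCND3 with 0.82 lay above a range of -0.50 to 0.36, and CCNE1 with -0.64, CCNB2 with -0.79, CCNB3 with -0.79 and CABLES1 with -1.36 lay below it. Between 2000 and 4000 bp the range was -0.63 to 0.32. CCNB3 with 1.86, CCNA2 with 0.79 and CCND3 with 0.49 lay above it, and CCNE2 with -0.82, CCNE1 with -1.06 and CCNB2 with -1.22 below. Each of these means rests on 1 to 10 probes.

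**Figure D3:**
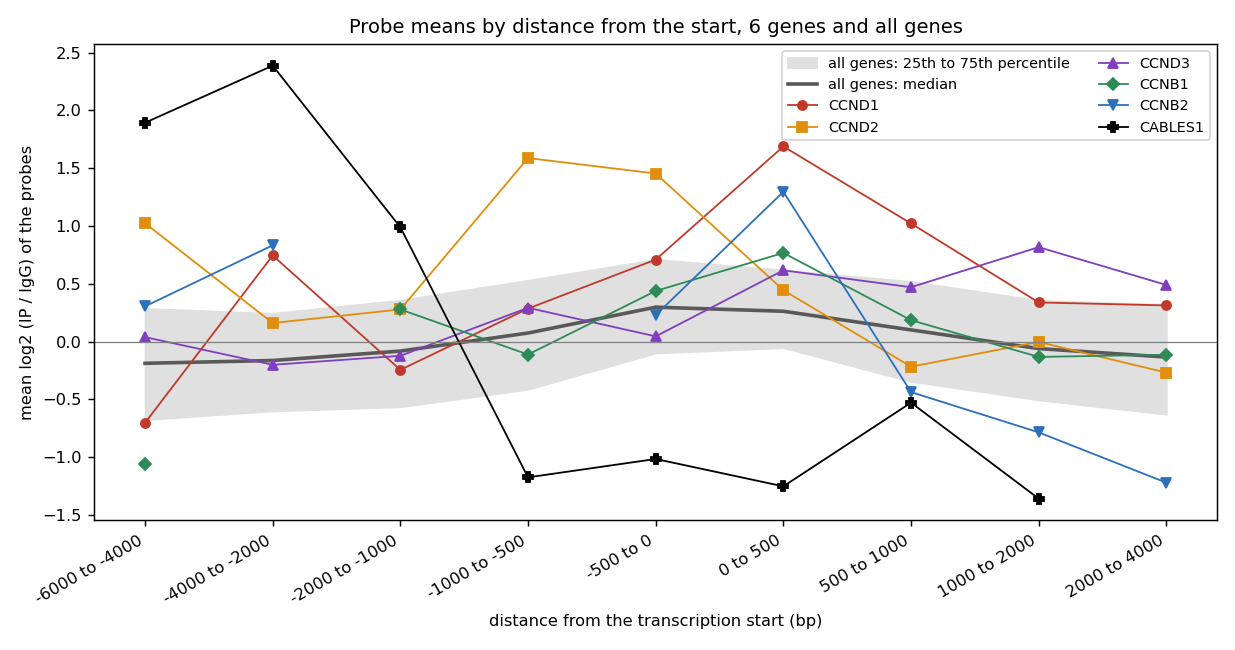
Mean log2 of IP over IgG signal of the probes of a gene (vertical axis) in steps of distance from the transcription start in bp (horizontal axis; the steps differ in width). Lines with markers are 6 of the 10 genes, the dark line is the median and the grey band the 25th to 75th percentile over all genes. CCND1, CCNB1 and CCNB2 peaked between 0 and 500 bp, as high as 1.69 in CCND1, while CABLES1 crossed from 2.39 between -4000 and -2000 bp to -1.17 between -1000 and -500 bp.

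Probe length moved with the side of a window. Over all kept probes, those of 45 bases had a median log2 ratio of 0.22 and those of 60 bases a median of -0.31, with median intensities at percentiles 70.3 and 31.6. In the IP-side windows of the 10 genes, 20 of 78 probe places (25.6%) were 60-base probes, in the IgG-side windows 50 of 69 (72.5%), and in the remaining windows 31.2%. The share of 60-base probes was 12% in CCND1 and 19.6% in CCND2, but 71.4% in CCNB2, 70.6% in CABLES1 and 66.7% in CCNA2 and in CCNB3. When each probe was set against the median of its own length, IP-side windows numbered 25 and IgG-side windows 14. The lowest CABLES1 window was then -1.15, with a mean of -0.83 over the 10 probes around the start, the lowest CCNB2 window was -1.0005 and the highest CCND2 window was 2.50. Of the 26 IP-side windows, 24 had all 3 probes above 0, and of the 23 IgG-side windows, 20 had all 3 below 0. Windows past 3-fold numbered 10 on the IP side, in CCND1, CCND2, CABLES1 and, through its dim probes, CCNB3, and 1 on the IgG side, in CCND1.

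**Figure D4:**
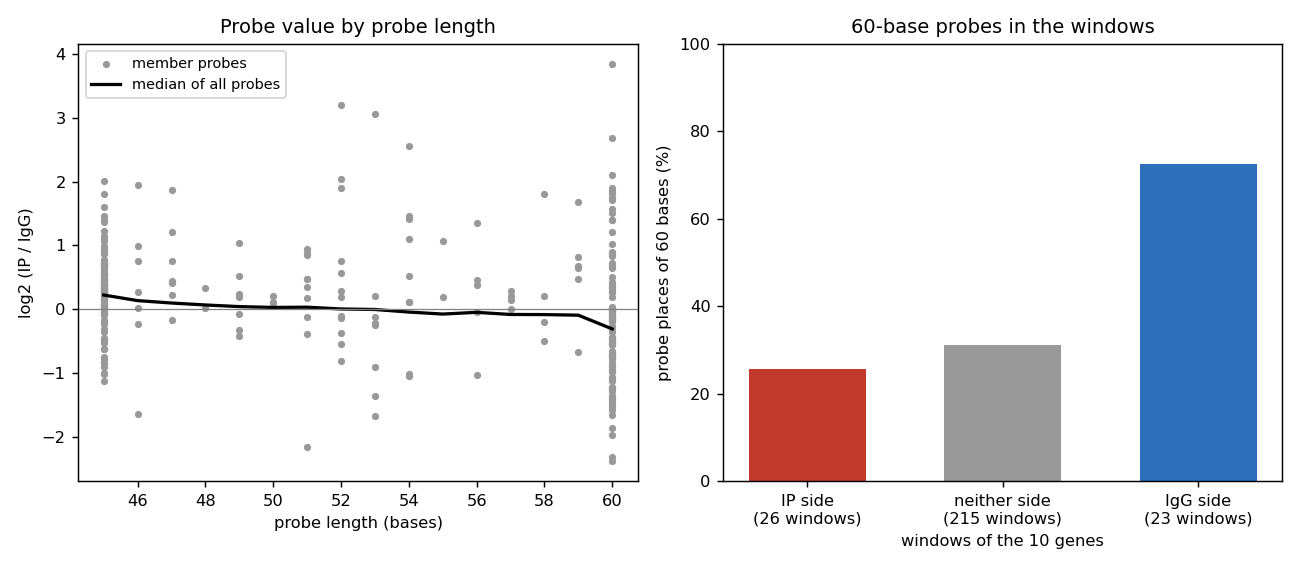
Left, log2 of IP over IgG signal (vertical axis) of the probes of the 10 genes against probe length in bases (horizontal axis), with the median over all probes of a length as a line that falls from 0.22 at 45 bases to -0.31 at 60 bases. Right, the percentage of probe places of 60 bases in the windows of the 10 genes, which was 25.6% on the IP side, 31.2% on neither side and 72.5% on the IgG side.

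Other genes of the cyclin pathway, 40 in a list of CDKs, their activators, pocket proteins, E2F factors, further cyclins and their regulators, were counted in the same way. All 40 had windows. An IP-side window was found in 28 of them (70%), beside 57.1% of all genes, and an IgG-side window in 25 (62.5%), beside 52.9%, with a median highest window of 1.15 and a median lowest window of -1.12. The 3 genes with the highest windows were WEE1, a kinase that holds CDK1 inactive, with 2.38, MNAT1, a subunit of the CDK-activating kinase, with 1.96, and E2F3, an activator of S phase genes, with 1.96. The 3 with the lowest were CDK4, the partner of D-type cyclins, with 0.52, CCNH, the cyclin of the CDK-activating kinase, with 0.70, and CCNI with 0.80. WEE1 and E2F3 also held IgG-side windows, 3 and 1 of them. CCND1, CCNB3 and CABLES1 are in the study's own table of genes chosen in part on these arrays, so that an IP-side window in them is not independent evidence.

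The order of the 10 genes by their highest window was CCND2, CABLES1, CCNB3, CCND1, CCNA2, CCND3, CCNB2, CCNB1, CCNE2 and CCNE1. The place of CCNB3 rests on the probe without an exact ratio, and at 1.19 it would follow CCND1. In the middle of this order the differences are small. CCNA2 at 1.17, CCND3 at 1.07, CCNB2 at 1.04, CCNB1 at 0.93 and CCNE2 at 0.89 lay closer to each other than the SD over the probes of most of these windows, between 0.20 and 0.83. CCND1 and CCND2 were above 1.5 under each of the settings drawn, while CCNB3 and CABLES1 each fell under 1 in one of them.

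**Figure D5:**
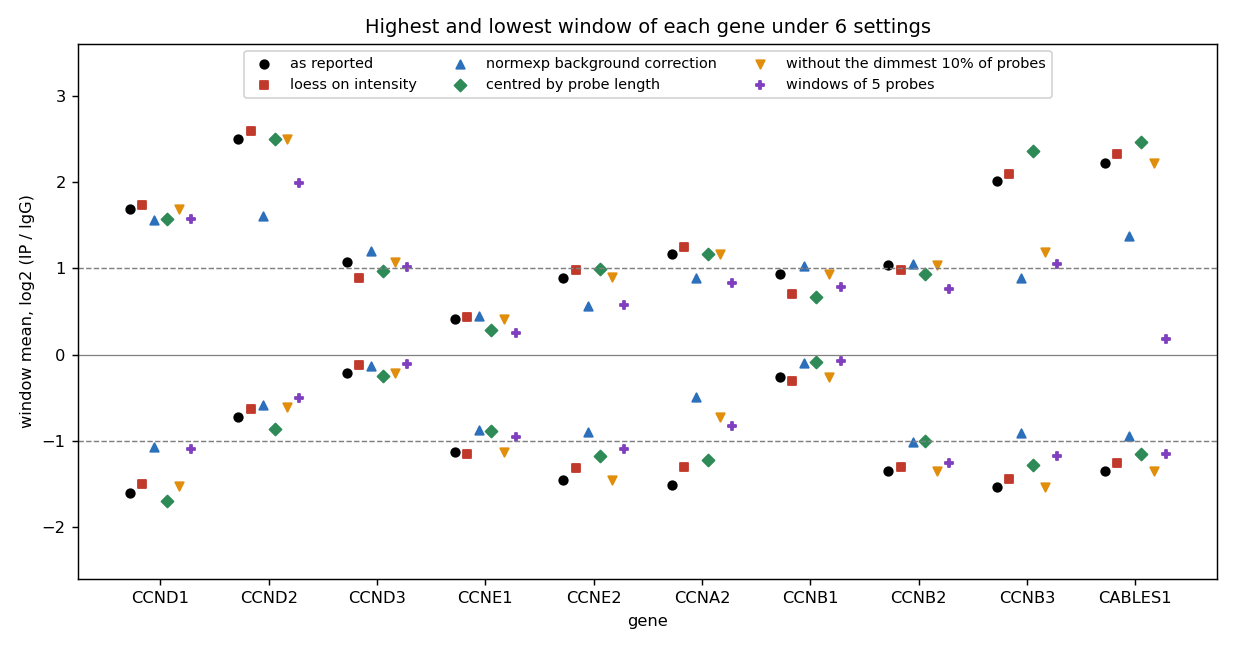
Highest and lowest window of each gene (vertical axis, log2 of IP over IgG signal) as reported and under 5 other settings, shown by color and marker, with dashed lines at 1 and -1. CCND1 and CCND2 stayed above 1 on the IP side under each of these settings. CCND3, CCNA2, CCNB1 and CCNB2 moved across 1, CCNB3 fell to 0.89 with normexp background correction and CABLES1 to 0.18 with windows of 5 probes.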

How the data were processed

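The authors deposited the scanner output of 2 Agilent promoter arrays, each hybridized once with Cy5-labeled GATA1 IP and Cy3-labeled IgG DNA from Meg-01 cells. Intensity values come from Agilent Feature Extraction 9.5.3.1 with a ChIP protocol, per the file headers. Its processed intensities, as deposited, were already corrected for a spatial surface, detrended and scaled between dyes by a linear factor, while mean and local background intensities are as scanned. The deposited log10 ratio has the IP as numerator. Each deposited p-value rests on the scanner program's own error model for the spot. The series value table holds the same log10 ratios at all genomic probes of both arrays. In the study, peaks were called with commercial software that was not used here. The genome build is not given in the sources used here.

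Log2 ratios of the processed intensities were computed in Python 3.11.15 with pandas 2.3.3 and centred on the median of each array, with no loess. Controls, spots flagged as non-uniform and probes that neither channel placed well above background were removed, which kept 473868 of 474411 genomic probes. The windows of a gene are those with at least 1 probe annotated to it. Percentiles place a gene among the genes of its array, and intensity percentiles place a probe among its probes. With 1 hybridization per probe no test was made, and calls are read against the share of all genes or windows called. The window code was tested on simulated data. Alternatives were loess and normexp (offset 50) in limma 3.58.1 under R 4.3.3, the series value table, other filters, 1.5-fold and 3-fold thresholds, windows of 5 probes, single probes, and a rule on the deposited p-values (under 0.001 at the center, under 0.1 at a neighbor, same sign). Centring by probe length, removal of the dimmest 10% of probes and windows centered on a gene's own probe were chosen after seeing the data. The genes, lists and thresholds were chosen with earlier results of these data known. Genes named are the 10 genes, those that share probes with them and, of the pathway list, the 3 with the highest and the 3 with the lowest highest windows.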

Additional observations from a re-analysis of the deposited data

How the results depend on the processing

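No paired analysis was possible because the arrays share no probes and every probe has 1 hybridization. The highest window of a gene kept its side of the threshold in 87 of 100 comparisons (10 genes, 10 alternatives), fell under it in 9 and rose past it in 4, and the lowest window kept its side in 87, lost it in 11 and gained it in 2. Of these alternatives, the series value table and the lack of a filter on dim probes could hardly change a call. The first holds the same ratios, and every probe of the 10 genes had passed the filter. Both kept the side in 10 of 10 genes for the highest and for the lowest window. No highest or lowest window changed sign. With normexp background correction IgG-side windows were left in 2 genes, CCND1 and CCNB2, beside 23.9% of all genes. On the IP side 6 of the 10 genes held a window under this correction, beside 33.1% of all genes. CCNB1 was gained at 1.03, and CCNA2 and CCNB3 were lost at 0.89 each. The windows numbered 3 on the IgG side and 15 on the IP side. Windows of 5 probes left 4 genes with an IP-side window (34.6% of all genes) and a median highest window of 0.81. Single probes gave 41 IP-side calls, in all 10 genes (86.1% of all genes). At 1.5-fold there were 72 IP-side and 50 IgG-side windows, in 9 and 8 genes, beside 85.0% and 78.4% of all genes. At 3-fold there were 10 and 1, in 4 genes and 1 gene, beside 20.6% and 22.3% of all genes, and 8 genes of the pathway list held an IP-side window. The rule on the deposited p-values called 51 IP-side and 43 IgG-side windows, in 9 and 8 genes, beside 85.2% and 79.8% of all genes. Centring by probe length gave 14 IgG-side windows, and loess left IP-side windows in 5 of the 10 genes, beside 58.3% of all genes. Stricter thresholds and wider windows leave fewer calls by construction, and for the other alternatives the cause was not tested. The mean of all probes of CCNB3 or CABLES1, and that around the start of CCNE1 or CCNB3, changed sign in 6 comparisons, each by less than the spread over probes. Dim probes limit the values at several loci, among them CCNB3, the run at the CCND1 start and the IgG-side window of CCNA2. Without the dimmest 10% of probes 19 IP-side windows were left in 7 genes, beside 49.0% of all genes. On the IgG side 17 windows were left in 6 genes, beside 48.5%.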
